A study of Mus musculus with 15 samples.

Results

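Expression of 38 genes of antigen presentation and of the interferon response, out of 23412 genes with a row in each of the 15 gene-count files, was followed in mouse embryonic stem cells (mESCs) that lacked STAG1, STAG2 or most of both. The 38 were a list of gene symbols drawn up by function, with earlier results of these data known, so their shares beside those of all genes are descriptions. STAG1 and STAG2 are alternative subunits of cohesin, the ring complex that holds sister chromatids together and folds chromatin into loops. Male v6.5 mESCs were grown on gelatin and transfected with 50 nM siRNA, polyA RNA was collected 48 hours later, and each of 5 conditions had 3 libraries. Wild-type siGLO cells received the transfection control siGLO. Stag1-/- siGLO and Stag2-/- siGLO cells received the same control. Wild-type siStag1 and Stag2-/- siStag1 cells received 1 pool of siRNAs against Stag1, so the last condition lost STAG2 by knockout and STAG1 by knockdown. Each knockout was a single CRISPR clone. The Stag1-/- clone carries an in-frame deletion in exon 7 that leaves its transcript level normal, and the Stag2-/- clone a deletion from exon 7 to exon 9. Replicates were repeats of 1 clone, so p-values measure the spread between these samples, and a knockout cannot be told apart from other differences between clones.

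Interferons act through receptors on the cell surface. Type I interferons bind IFNAR1 and IFNAR2, and interferon gamma binds IFNGR1 and IFNGR2. The signal reaches DNA as STAT and IRF factors, which bind the interferon-stimulated response element (ISRE) or the gamma-activated site (GAS) and turn on effector genes. Nucleic acid sensors such as RIG-I, MDA5 and cGAS start the response when they meet foreign or misplaced RNA or DNA. A large part of the machinery that cuts proteins and loads peptides onto MHC class I molecules is itself interferon-inducible. Pluripotent cells are known for low class I expression and a muted interferon response.

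The promoters of 34 members were found among the RefSeq promoters of GRCm38.p6, and those of Tap2, Dhx58, Tmem173 and Usp18 were not. An ISRE match was taken as 2 copies of GAAA with any 2 bases between them and a GAS match as TTCNNNGAA, on either strand, in the 250 bases before the gene start. Of the 34 members, 9 had an ISRE match, against 3.46% of all 27025 genes with such a promoter. They were B2m, H2-T23, Stat2, Ifitm2, Bst2, Isg15, Ifit1, Ifit3 and Rsad2. A GAS match was found in 5, against 8.13% of all genes, namely Psmb8, Ifnar2, Irf1, Bst2 and Ifit2. The windows listed here are shown because their genes moved in at least 1 comparison. Capitals mark the match, and a match that begins with TTTC is an ISRE read from the opposite strand. A match is a description of letters and not a binding site. The start is that of the RefSeq entry. For Psmb8 it lies 474 bases inside the GENCODE gene model whose positions are used elsewhere, so its window is within that model.
Isg15, ISRE 72 bases upstream, chr4:156200871-156200900, minus strand: gtaggaaaagGAAACCGAAAcagaaaatag
Bst2, ISRE 124 bases upstream, chr8:71537577-71537606, minus strand: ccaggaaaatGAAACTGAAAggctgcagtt
Rsad2, ISRE 120 bases upstream, chr12:26456553-26456582, minus strand: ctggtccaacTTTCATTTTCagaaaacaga
Stat2, ISRE 222 bases upstream, chr10:128270266-128270295, plus strand: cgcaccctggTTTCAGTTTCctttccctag
Irf1, GAS 90 bases upstream, chr11:53769914-53769942, plus strand: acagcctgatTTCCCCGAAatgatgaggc
Psmb8, GAS 97 bases upstream, chr17:34198088-34198116, plus strand: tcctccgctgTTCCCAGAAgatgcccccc

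The 15 libraries held 14982560 to 19070126 counts on genes, with a median of 17700059, and the 38 members took 0.0860 to 0.118% of them. Stag1 was lower after siStag1, at 442 ± 83.1 in wild-type siStag1 and 692 ± 79.2 in Stag2-/- siStag1 libraries against 2146 ± 138 normalized counts in wild-type siGLO (mean ± SD, n = 3). Stag2 stood at 692 ± 40.9 in Stag2-/- siGLO against 2331 ± 3.21. Stag1 stood at 2023 ± 300.2 in Stag1-/- siGLO, which checks nothing because the deletion is in frame. Summed mESC markers were at 116728 to 122447 normalized counts in wild-type siGLO, 95955 to 111328 in Stag1-/- siGLO, 90180 to 108288 in Stag2-/- siGLO and 66334 to 85173 in Stag2-/- siStag1 libraries, and 2, 5 and 8 of the 10 passed the test as lower in the last 3 groups. Summed primitive endoderm markers were 18771 to 19573 in wild-type siGLO and 2837 to 5406 in the 9 Stag1-/- and Stag2-/- libraries, and all 8 passed the test as lower in both knockouts and in Stag2-/- siStag1 cells. Of the 10 immune cell markers, 4 had 3 counts or fewer in every wild-type siGLO library, among them Ptprc and Tyrobp, and 5 were tested. The others were detected, Laptm5 with up to 1400 counts and Cd68 with up to 279. The summed level of the 10 was 1381 to 1751 in wild-type siGLO, 1054 to 1275 in Stag1-/- siGLO, 688 to 1276 in Stag2-/- siGLO and 379 to 556 in Stag2-/- siStag1, and 1, 2 and 2 of the 5 were lower in the last 3 groups. Summed fibroblast markers were 1460 to 1894 in wild-type siGLO and 1218 to 1614 in the 9 Stag1-/- and Stag2-/- libraries. Pdgfra, also on the primitive endoderm list, held 513 to 571 of these counts in wild-type siGLO and 27.1 to 202 in the 9 libraries. The sums therefore do not show a fall of fibroblast markers as a set. Of the 9 tested, 1 was higher and 1 lower in Stag1-/- siGLO, 2 and 2 in Stag2-/- siGLO, and 2 and 1 in Stag2-/- siStag1. Summed primitive streak and mesoderm markers were 302 to 1217 in Stag2-/- siGLO, against 272 to 393 in wild-type siGLO, 317 to 361 in Stag1-/- siGLO and 283 to 449 in Stag2-/- siStag1, and of the 7 tested, 3 were higher and 1 lower in Stag2-/- siGLO. In wild-type siStag1 the sums were 109059 to 115655 for mESC, 16548 to 17957 for primitive endoderm and 1220 to 1385 for immune cell markers. They were 1480 to 1717 for fibroblast and 288 to 339 for primitive streak and mesoderm markers. The mESC and primitive endoderm sums lay below all wild-type siGLO libraries, and 0 markers passed the test there. In bulk RNA, fewer cells of a type and less RNA per cell cannot be told apart, and the part of these shifts in the results was not tested. On a principal component that held 13.5% of the variance, values fell from replicate 1 to replicate 3 in every condition. Replicate 1 of both Stag2-/- conditions stood furthest apart, at 29.6 and 25.6 against at most 11.4 in the other libraries. Results for these conditions were therefore also computed without both.

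In wild-type siGLO cells the 38 members spanned more than 4 orders of magnitude. Per kilobase of exon, the most abundant were Ifitm2 at 6286 ± 550.2, Ifitm3 at 3101 ± 212, Bst2 at 1555 ± 118 and Ifitm1 at 762 ± 59.5 normalized counts (SD, n = 3). All 4 encode membrane proteins that block virus entry or release, and the ranges of neighbours in this order did not overlap. Their levels lay at the 92.3rd to 99.4th percentile of all genes tested. Class I and its partners were unevenly expressed. The light chain B2m, at 252 ± 23.2, and the heavy chain H2-K1, at 209 ± 43.9, overlapped in range, whereas the heavy chain H2-D1 stood at 7.55 ± 4.51 and H2-T23 at 2.46. The proteasome activator genes Psme1 and Psme2 stood at 331 ± 28.6 and 303 ± 25.1, and the immunoproteasome subunits Psmb9 and Psmb8 at 9.87 ± 1.61 and 4.95 ± 2.33. The interferon receptors lay between 31.9 for Ifngr2 and 135 for Ifnar1. Most effectors were low, with Oasl2 at 2.82 ± 1.28, Isg15 at 2.18, Ifit1 at 0.887, Rsad2 at 0.456, Usp18 at 0.223 and Ifit3 at 0.185. There were 5 members with too few counts to be tested, with at most 11 counts in a library. These were H2-T23 (2 to 9 counts), the factor Irf7 (0 to 9), Ifit1 (0 to 11), Ifit3 (0 to 6) and Usp18 (0 to 8).

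**Figure D1:**
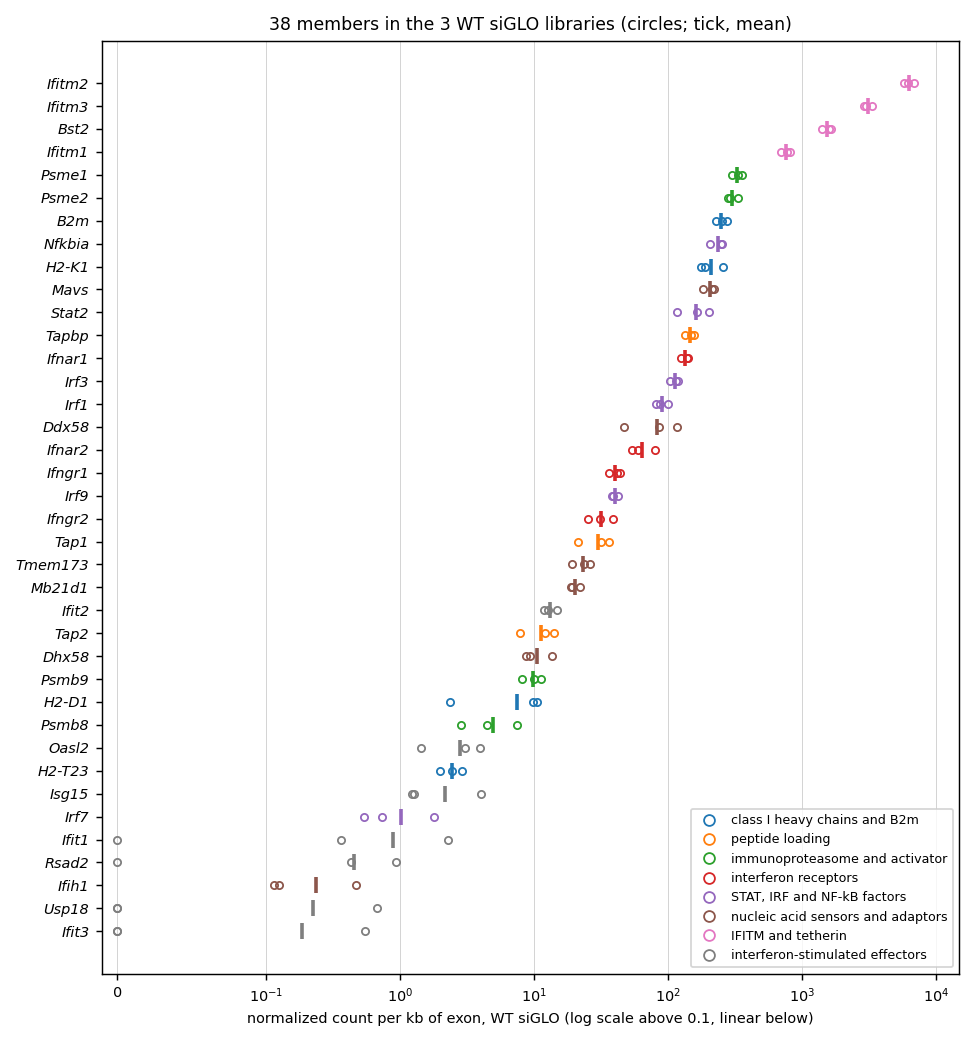
Normalized counts per kilobase of exon (x axis, log scale above 0.1 and linear below) of the 38 members in the 3 wild-type siGLO libraries. Circles are libraries, ticks are means and colours are the 8 roles. The 4 genes of the IFITM and tetherin group lead, and the effectors Oasl2, Isg15, Ifit1, Rsad2, Usp18 and Ifit3 lie at 2.82 or below.

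Of the 33 members tested, 11 passed the test in Stag1-/- siGLO against wild-type siGLO cells (10 higher and 1 lower; edgeR quasi-likelihood test, Benjamini-Hochberg adjusted p under 0.1), where 20.0% of all 14508 genes tested did so (10.1% higher and 9.93% lower). In Stag2-/- siGLO cells 17 passed (12 higher and 5 lower), against 28.3% of all genes (13.9% higher and 14.4% lower). In Stag2-/- siStag1 cells 25 passed (18 higher and 7 lower), against 43.9% (22.6% higher and 21.3% lower). In wild-type siStag1 cells 0 passed, against 0.248%, and 6 of the 33 had an unadjusted p under 0.05, against 6.36% of all genes. The filter on low counts was met by Ifih1, Isg15 and Rsad2 only through libraries other than wild-type siGLO, so these 3 could enter the test only where they were high. They make up 1 of the 11, 1 of the 17 and 3 of the 25 calls. The 4 comparisons share the same wild-type siGLO libraries. The median log2 fold change over the 33 members was 0.31, 0.35, 0.45 and 0.03 in these 4 comparisons, and that over all genes was -0.01, 0.01, 0.01 and 0.00. In the same order, the libraries of both groups did not overlap for 15, 15, 26 and 9 of the 33 members. That held for 31.7%, 35.7%, 47.3% and 15.5% of all genes, so a lack of overlap was common. A test of any difference among the 5 conditions was passed by 26 of the 33 members and by 50.7% of all genes. Blocking on the replicate number gave 20 members (30.6% of all genes) in Stag1-/- siGLO and 22 (39.4%) in Stag2-/- siGLO cells. The Stag2-/- siGLO count fell to 11 without Stag2-/- siGLO replicate 2, wild-type siGLO replicate 2 or wild-type siGLO replicate 3.

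**Figure D2:**
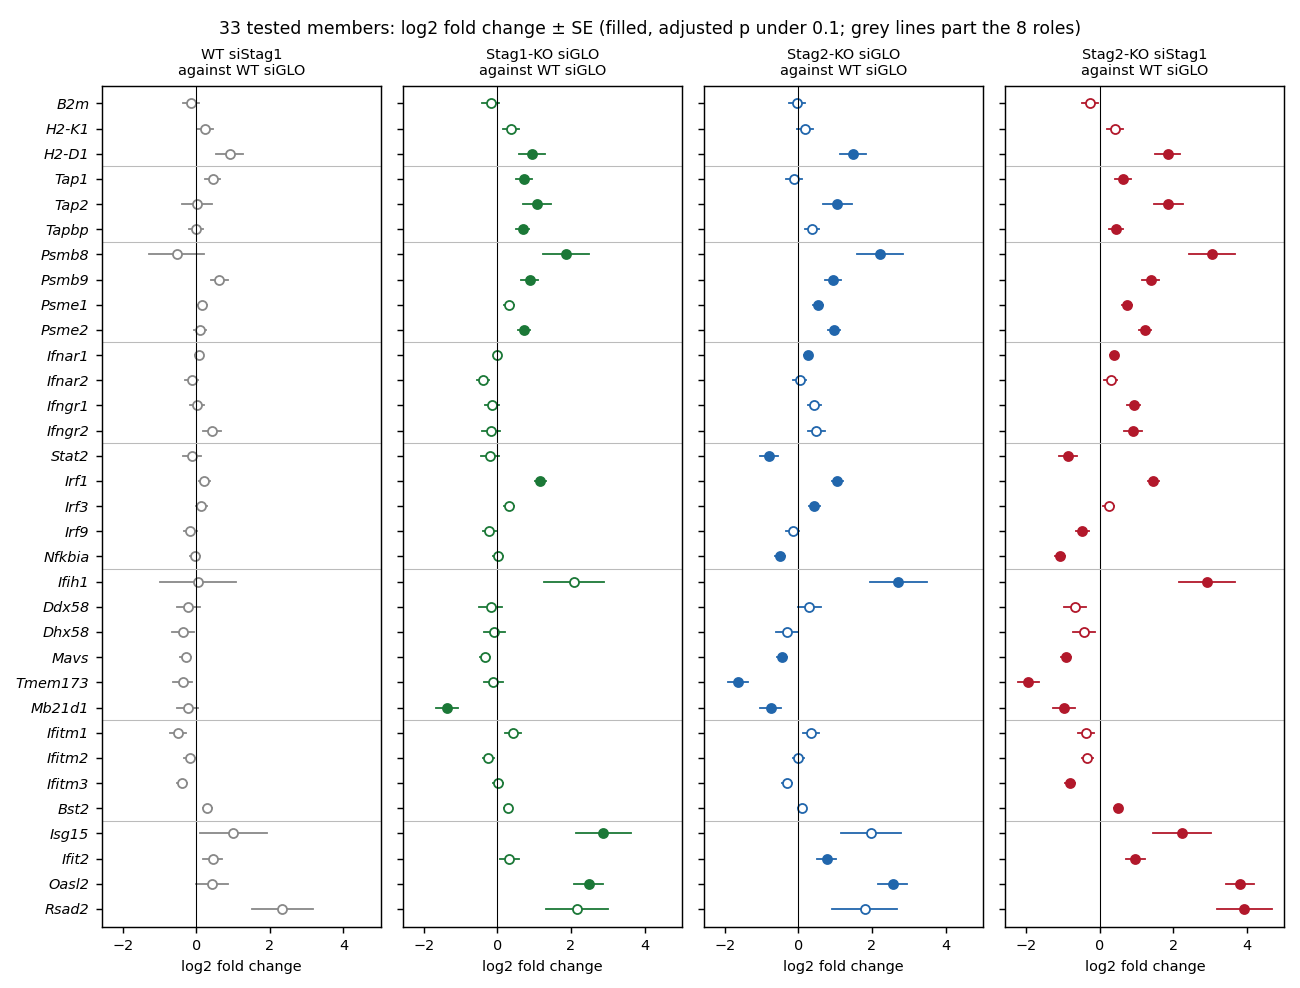
Log2 fold change (x axis, points, with the standard error as a line) of the 33 tested members, 1 per row and parted into 8 roles, in each condition against wild-type siGLO. Filled points had an adjusted p under 0.1, which 0, 11, 17 and 25 members reached from left to right.

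Of the 4 immunoproteasome and activator genes, 3 were higher in Stag1-/- siGLO cells and all 4 in Stag2-/- siGLO and Stag2-/- siStag1 cells, where 10.1%, 13.9% and 22.6% of all genes were higher. The immunoproteasome replaces standard proteasome subunits and makes peptides suited to class I. Its subunit gene Psmb9 had 29.9, 41.7 and 36.8 normalized counts in the wild-type siGLO libraries, 53.2, 71.1 and 75.0 in Stag1-/- siGLO, 55.0, 73.3 and 79.2 in Stag2-/- siGLO and 78.9, 105 and 100.1 in Stag2-/- siStag1. None of these 3 groups overlapped wild-type siGLO, and the log2 fold changes were 0.88 ± 0.23 (SE; adjusted p = 0.0162), 0.94 ± 0.23 (adjusted p = 0.00894) and 1.39 ± 0.22 (adjusted p = 0.000181). Psmb8, another immunoproteasome subunit, whose GAS match was given with the promoter windows, had 25.2, 15.3 and 9.68 in wild-type siGLO and 69.9, 46.7 and 67.8 in Stag1-/- siGLO. It had 12.7, 139 and 82.4 in Stag2-/- siGLO, where replicate 1 lay within the wild-type range, and 67.0, 185 and 171 in Stag2-/- siStag1. Its log2 fold changes were 1.87 ± 0.63 (adjusted p = 0.0582), 2.21 ± 0.62 (adjusted p = 0.0204) and 3.06 ± 0.62 (adjusted p = 0.00113). The first was lost without Stag1-/- siGLO replicate 1 or 3 or wild-type siGLO replicate 2 or 3 (1.59 to 1.80, adjusted p = 0.114 to 0.174), and the second without Stag2-/- siGLO replicate 2 (1.49, adjusted p = 0.131). Psme2, which encodes a subunit of the PA28 activator of the proteasome, had 584, 518 and 500.4 in wild-type siGLO, 963, 779 and 905 in Stag1-/- siGLO, 881, 1253 and 990.3 in Stag2-/- siGLO and 937, 1547 and 1290.3 in Stag2-/- siStag1. Its groups did not overlap wild-type siGLO in any of the 3, with log2 fold changes of 0.72 ± 0.16 (adjusted p = 0.0074), 0.96 ± 0.16 (adjusted p = 0.000777) and 1.24 ± 0.16 (adjusted p = 3.07e-05). Its partner Psme1 had 786, 662 and 743 in wild-type siGLO, 933, 1101 and 1124 in Stag2-/- siGLO and 994, 1392 and 1300.5 in Stag2-/- siStag1, a log2 fold change of 0.53 ± 0.14 (adjusted p = 0.0157) and 0.75 ± 0.14 (adjusted p = 0.000675). In Stag1-/- siGLO it had 862, 782 and 1097, which overlapped wild-type siGLO, with a log2 fold change of 0.32 ± 0.14 (adjusted p = 0.147, and 0.0634 with the replicate block). Of the sequence of Psme2, 12.1% of stretches of read length (150 bases) also occurred in Psme2b, so its level is uncertain to that extent.

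Of the genes of peptide transport and loading, all 3 were higher in Stag1-/- siGLO and Stag2-/- siStag1 cells and 1, Tap2, in Stag2-/- siGLO cells (10.1%, 22.6% and 13.9% of all genes). Tap1 encodes a chain of the transporter that carries peptides into the endoplasmic reticulum. It had 118, 173 and 200.3 normalized counts in wild-type siGLO and 230.3, 328 and 250.4 in Stag1-/- siGLO, with no overlap and a rise of 0.72 ± 0.21 on the log2 scale (adjusted p = 0.0306). In Stag2-/- siGLO it had 127, 193 and 129.9, within the wild-type range, a difference of -0.13 ± 0.22 on the log2 scale (adjusted p = 0.713). In Stag2-/- siStag1 it had 218, 282 and 267, with a log2 fold change of 0.64 ± 0.21 (adjusted p = 0.025). The difference between the knockouts themselves also passed the test, with Tap1 higher in Stag1-/- siGLO than in Stag2-/- siGLO by a log2 fold change of 0.85 ± 0.21 (adjusted p = 0.0113). The Stag1-/- rise was lost without Stag1-/- siGLO replicate 2 or wild-type siGLO replicate 1 (0.53 to 0.56, adjusted p = 0.13 to 0.132), and the Stag2-/- siStag1 rise without wild-type siGLO replicate 1 (0.45, adjusted p = 0.114). Tap2 encodes the other chain of the transporter. It had 29.9, 45.8 and 53.2 in wild-type siGLO, 107, 70.1 and 94.9 in Stag1-/- siGLO, 36.0, 128 and 105 in Stag2-/- siGLO and 103, 201 and 167 in Stag2-/- siStag1. Replicate 1 of Stag2-/- siGLO overlapped the wild-type range and the other groups did not. The log2 fold changes of Tap2 were 1.08 ± 0.39 (adjusted p = 0.0788), 1.06 ± 0.39 (adjusted p = 0.068) and 1.87 ± 0.39 (adjusted p = 0.00143). The first 2 were each lost without any of 4 libraries, wild-type siGLO replicates 1 and 2 in both cases, with Stag1-/- siGLO replicates 1 and 3 (0.87 to 1.13, adjusted p = 0.142 to 0.236) and Stag2-/- siGLO replicates 2 and 3 (0.71 to 1.11, adjusted p = 0.14 to 0.28), and the second also in a fit to only the libraries compared (adjusted p = 0.136). Tapbp encodes tapasin, which bridges the transporter and class I. It had 488, 537 and 570.1 in wild-type siGLO and 941, 797 and 827 in Stag1-/- siGLO, with no overlap and a log2 fold change of 0.69 ± 0.18 (adjusted p = 0.0191). It had 535, 884 and 641 in Stag2-/- siGLO (0.37 ± 0.18, adjusted p = 0.167, and 0.52 with adjusted p = 0.0084 without replicate 1 of both Stag2-/- conditions) and 517, 891 and 775 in Stag2-/- siStag1, where replicate 1 overlapped wild-type siGLO (0.45 ± 0.18, adjusted p = 0.0635). The last call was lost without Stag2-/- siStag1 replicate 2 or 3 or wild-type siGLO replicate 1 or 2 (0.28 to 0.46, adjusted p = 0.128 to 0.288).

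Of the class I chains, H2-D1 rose in both knockouts and in Stag2-/- siStag1 cells, and H2-K1 and B2m did not pass the test in the fit of all libraries without the block. H2-D1 (chr17:35262730-35267499 in mm10) had 25.2, 6.10 and 27.1 normalized counts in wild-type siGLO, 35.4, 34.1 and 43.4 in Stag1-/- siGLO, 44.4, 65.7 and 56.0 in Stag2-/- siGLO and 72.0, 67.6 and 73.8 in Stag2-/- siStag1. The 3 groups lay above wild-type siGLO without overlap, at log2 fold changes of 0.94 ± 0.36 (adjusted p = 0.0936), 1.49 ± 0.35 (adjusted p = 0.00723) and 1.85 ± 0.35 (adjusted p = 0.000635). The first was lost without wild-type siGLO replicate 2, the low library, or any 1 of the Stag1-/- siGLO libraries (0.52 to 1.00, adjusted p = 0.125 to 0.264), with library size alone as the scale (adjusted p = 0.105) and in a fit to only the libraries compared (adjusted p = 0.151). H2-K1 ranged from 480.4 to 998 over the 15 libraries. In Stag1-/- siGLO its log2 fold change was 0.36 ± 0.21 (adjusted p = 0.292, and 0.0362 with the replicate block). H2-K1 had 681, 896 and 883 in Stag2-/- siStag1 against 522, 557 and 761 in wild-type siGLO, at 0.42 ± 0.21 (adjusted p = 0.138), and it passed there without replicate 1 of both Stag2-/- conditions (0.54, adjusted p = 0.0271), without Stag2-/- siStag1 replicate 1 (0.54, adjusted p = 0.0755) or without wild-type siGLO replicate 3 (0.60, adjusted p = 0.0609). B2m, the light chain that every class I molecule needs, ranged from 144 to 269 and passed in none of the 7 comparisons without the block. Its log2 fold change in Stag2-/- siStag1 was -0.27 ± 0.22 (adjusted p = 0.367). For H2-D1, 1.35% of read-length stretches occurred in H2-Q1.

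**Figure D3:**
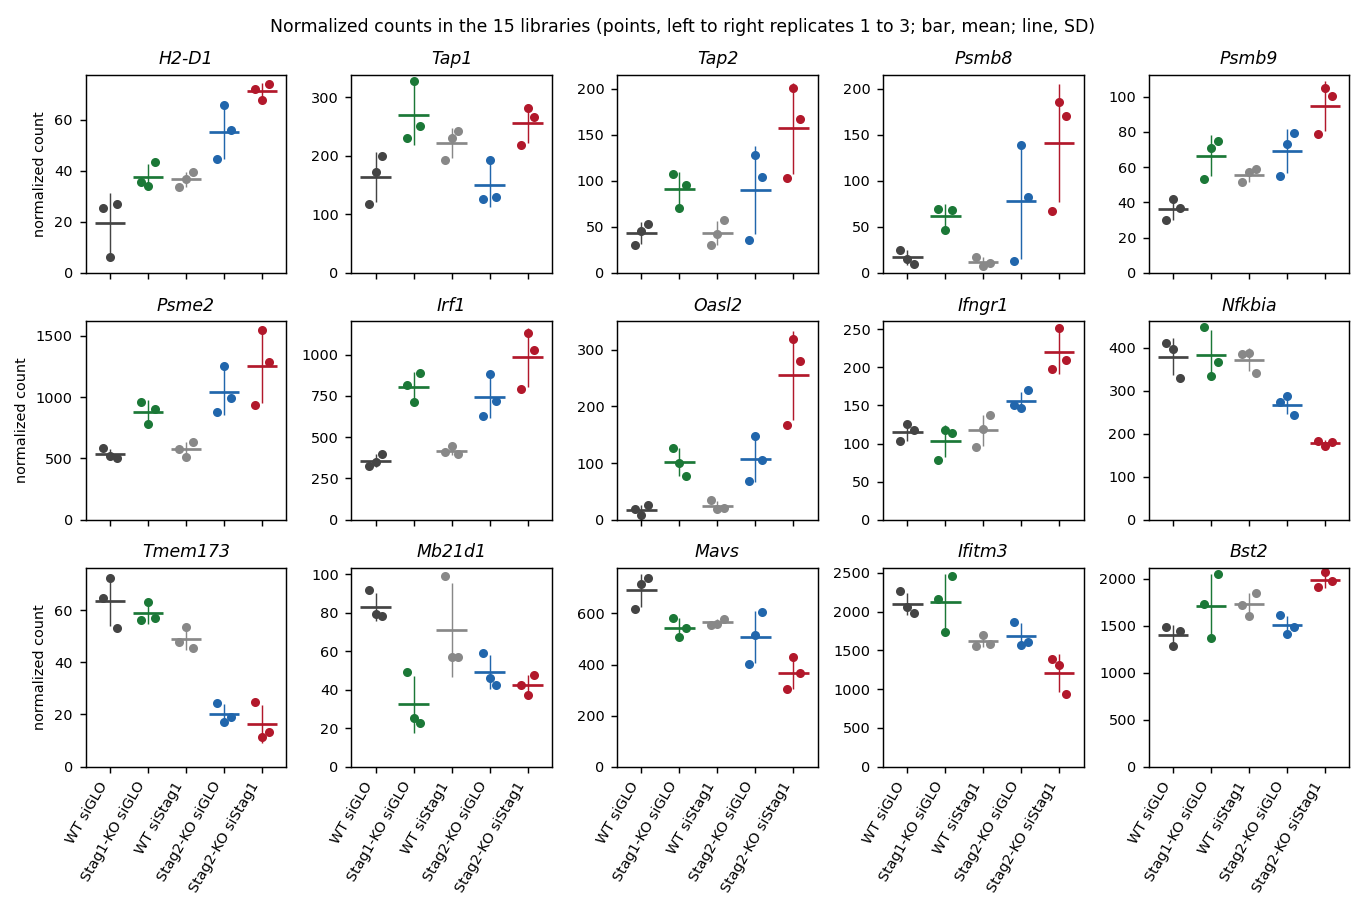
Normalized counts (y axis) of 15 members in the 3 libraries of each of the 5 conditions (x axis). Points are libraries, bars are means and lines are SDs. Psmb9, Psme2, Irf1 and Oasl2 lie above wild-type siGLO without overlap in Stag1-/- siGLO, Stag2-/- siGLO and Stag2-/- siStag1, and Psmb9 also in wild-type siStag1. In those first 3 conditions, 31.7%, 35.7% and 47.3% of all genes did not overlap wild-type siGLO, in either direction. Tmem173 is low in both Stag2-/- conditions.

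Tapbp, Psmb9, Tap1, Psmb8 and Tap2 lie with H2-K1 in 1 stretch of 300.4 kb, chr17:33915899-34216321 in mm10. Of the 6 members there, 5 were higher in Stag1-/- siGLO, 3 in Stag2-/- siGLO and 5 in Stag2-/- siStag1 cells (10.1%, 13.9% and 22.6% of all genes). Among the 29 other tested genes within 250 kb, 2 were higher and 1 lower in Stag1-/- siGLO, 9 and 2 in Stag2-/- siGLO, and 7 and 5 in Stag2-/- siStag1. In either direction these were 10.3%, 37.9% and 41.4%, against 20.0%, 28.3% and 43.9% of all genes. The median log2 fold changes of these neighbours were 0.05, 0.13 and 0.13. This look at the neighbours was added after the data had been seen. The gene models of Psmb9 and Tap1 overlap on opposite strands, as do those of B2m and Patl2, H2-T23 and A930015D03Rik, Psme1 and Emc9, Irf3 and Bcl2l12, and Irf7 and Phrf1. How strand was used in counting was not given in the sources used here, so reads in these shared stretches cannot be told apart. Tapbp and Zbtb22, and Irf9 and Rnf31, overlap on the same strand. Psme1, Psme2 and Irf9 lie within 31.9 kb on chromosome 14 (55578123 to 55610030). Of the 24 other tested genes within 250 kb there, 12.5%, 20.8% and 29.2% passed in either direction in the same 3 comparisons, against the same shares of all genes.

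**Figure D4:**
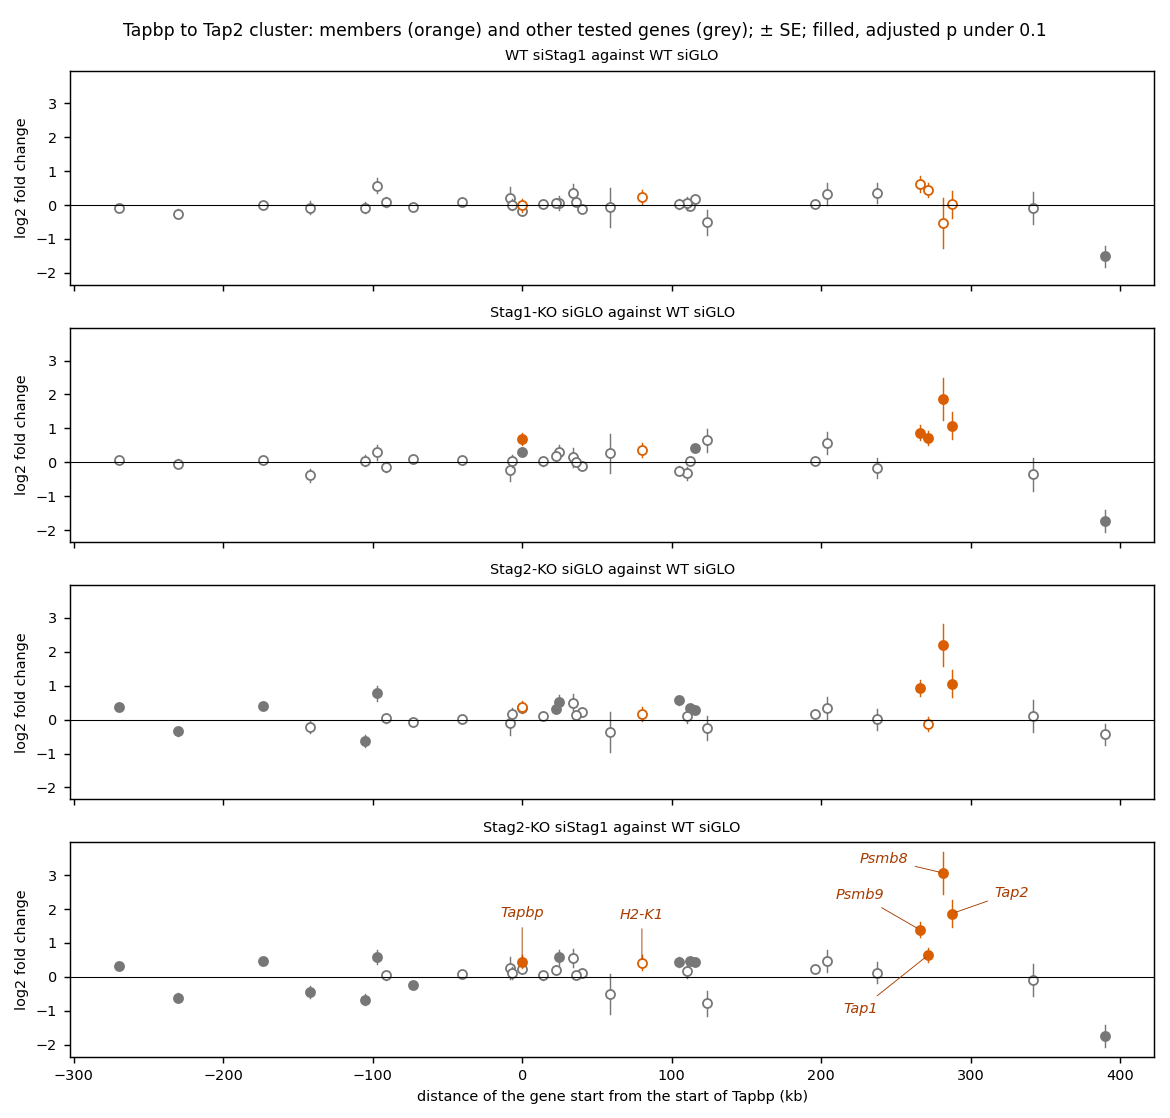
Log2 fold change against wild-type siGLO (y axis, points, with the standard error as a line) of tested genes by the distance of their start from that of Tapbp (x axis, kb), in 4 conditions from top to bottom. Orange points are the 6 members, grey points the 29 other genes, and filled points had an adjusted p under 0.1. Psmb9, Tap1, Psmb8 and Tap2 stand together at the right of the members, and Psmb8 reaches 3.06 in Stag2-/- siStag1.

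Of the 4 interferon receptor genes, 0 passed the test in Stag1-/- siGLO cells (1, Ifnar2, at an unadjusted p under 0.05), 1 was higher in Stag2-/- siGLO cells (13.9% of all genes) and 3 were higher in Stag2-/- siStag1 cells (22.6%). Ifngr1, the ligand-binding chain of the interferon gamma receptor, had 103, 125 and 118 normalized counts in wild-type siGLO, 150.2, 147 and 170.0 in Stag2-/- siGLO and 198, 252 and 209 in Stag2-/- siStag1. Neither group overlapped wild-type siGLO, at log2 fold changes of 0.43 ± 0.18 (adjusted p = 0.107, 0.0951 with DESeq2 and 0.0355 with the replicate block) and 0.93 ± 0.18 (adjusted p = 0.000893). Stag1-/- siGLO libraries had 78.7, 118 and 114, below those of Stag2-/- siGLO, a difference of -0.59 ± 0.18 between the knockouts (adjusted p = 0.037). Ifngr2, the other chain, had 118, 146 and 95.8 in wild-type siGLO, 99.4, 124 and 96.7 in Stag1-/- siGLO, 107, 194 and 204 in Stag2-/- siGLO and 174, 219 and 282 in Stag2-/- siStag1. It rose in Stag2-/- siStag1 by 0.91 ± 0.24 (adjusted p = 0.00654), and in Stag2-/- siGLO its log2 fold change was 0.49 ± 0.24 (adjusted p = 0.159). It was lower in Stag1-/- siGLO than in Stag2-/- siGLO by -0.66 ± 0.24 (adjusted p = 0.0672), with replicate 1 of Stag2-/- siGLO inside the Stag1-/- range. Ifnar1, a chain of the type I receptor, changed little in size. It had 841, 831 and 739 in wild-type siGLO, 831, 838 and 738 in Stag1-/- siGLO, 886, 978 and 1024 in Stag2-/- siGLO and 1008, 1065 and 1069 in Stag2-/- siStag1, at 0.26 ± 0.10 (adjusted p = 0.0677) in Stag2-/- siGLO, 0.38 ± 0.10 (adjusted p = 0.00557) in Stag2-/- siStag1 and -0.26 ± 0.10 (adjusted p = 0.07) between the knockouts. Its partner Ifnar2 ranged from 151 to 288. It passed in no comparison in the fit of all libraries without the block, at -0.39 ± 0.17 in Stag1-/- siGLO (adjusted p = 0.15, and 0.0501 with the replicate block) and -0.42 ± 0.17 between the knockouts (adjusted p = 0.102, and 0.0262 with the block). Between the knockouts Ifnar2 also passed with DESeq2 (adjusted p = 0.0949) and without replicate 1 of both Stag2-/- conditions (-0.45, adjusted p = 0.0843). Against wild-type siGLO its log2 fold change in Stag2-/- siStag1 was 0.30 ± 0.17 (adjusted p = 0.183), and it passed as higher without replicate 1 of both Stag2-/- conditions (0.42, adjusted p = 0.0672), without Stag2-/- siStag1 replicate 1 (0.42, adjusted p = 0.078) or without wild-type siGLO replicate 3 (0.48, adjusted p = 0.0462). Ifngr2 passed in Stag2-/- siGLO without replicate 1 of both Stag2-/- conditions (0.73, adjusted p = 0.00802). Of the receptor calls made with all libraries, 4 rested on single libraries and were also lost in a fit to only the libraries compared (adjusted p = 0.107 to 0.161), that of Ifnar1 between the knockouts with no filter on low counts as well (adjusted p = 0.128). Ifnar1 was lost in Stag2-/- siGLO without replicate 2 or 3 of that group or of wild-type siGLO (0.20 to 0.28, adjusted p = 0.121 to 0.227). Between the knockouts, Ifnar1 was lost without Stag1-/- siGLO replicate 3 or Stag2-/- siGLO replicate 2 or 3 (-0.25 to -0.21, adjusted p = 0.155 to 0.2), Ifngr1 without Stag1-/- siGLO replicate 1 or Stag2-/- siGLO replicate 3 (-0.52 to -0.42, adjusted p = 0.11 to 0.141) and Ifngr2 without Stag1-/- siGLO replicate 1 or 3 or Stag2-/- siGLO replicate 2 or 3 (-0.61 to -0.50, adjusted p = 0.159 to 0.215).

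Transcription factor genes moved in both directions. Irf1 (chr11:53770014-53778374 in mm10), the activator of class I and immunoproteasome genes whose GAS match was given with the promoter windows, had 323, 349 and 401 normalized counts in wild-type siGLO, 814, 711 and 890.4 in Stag1-/- siGLO, 629.5, 885 and 721 in Stag2-/- siGLO and 789, 1134 and 1026 in Stag2-/- siStag1. It was above wild-type siGLO in each of the 9 libraries, with log2 fold changes of 1.17 ± 0.15 (adjusted p = 7.36e-05), 1.06 ± 0.15 (adjusted p = 0.000158) and 1.46 ± 0.15 (adjusted p = 2.2e-06). In wild-type siStag1 it had 409, 445 and 396, which overlapped wild-type siGLO. Stat2, a subunit of the complex that binds the ISRE, went the other way in STAG2-deficient cells. It had 689, 974 and 1202 in wild-type siGLO, 663, 892 and 931 in Stag1-/- siGLO, 414, 497 and 743 in Stag2-/- siGLO and 337, 598 and 644 in Stag2-/- siStag1. It fell by 0.79 ± 0.25 in Stag2-/- siGLO (adjusted p = 0.0339), with an overlap of 1 library, and by 0.86 ± 0.25 in Stag2-/- siStag1 (adjusted p = 0.0132). Between the knockouts the difference was 0.59 ± 0.25 (adjusted p = 0.114, and 0.00137 with the replicate block). Stat2 passed there under 6 of 14 alternatives, among them DESeq2 (adjusted p = 0.0802) and without Stag2-/- siGLO replicate 3 (0.86, adjusted p = 0.0363). Irf9, which pairs with STAT2, had 211, 231 and 207 in wild-type siGLO, 174, 176 and 205 in Stag1-/- siGLO, 184, 168 and 231 in Stag2-/- siGLO and 112, 191 and 164 in Stag2-/- siStag1, and fell by 0.47 ± 0.18 (adjusted p = 0.0464). Irf3, the factor activated by the sensors, had 410.4, 359 and 394 in wild-type siGLO, 614, 444 and 509 in Stag2-/- siGLO (0.43 ± 0.15, adjusted p = 0.0477), 463, 493 and 427 in Stag2-/- siStag1 and 464, 408 and 573 in Stag1-/- siGLO (0.31 ± 0.15, adjusted p = 0.174, and 0.079 with the block). Nfkbia (chr12:55489410-55492647 in mm10), the inhibitor that holds NF-kB in the cytoplasm, fell in both Stag2-/- conditions. It had 410.4, 399 and 330.0 in wild-type siGLO, 448, 335 and 368 in Stag1-/- siGLO, 273, 288 and 244 in Stag2-/- siGLO and 184, 172 and 181 in Stag2-/- siStag1. The Stag2-/- groups overlapped neither wild-type siGLO nor each other, with log2 fold changes of -0.50 ± 0.13 (adjusted p = 0.0134) and -1.08 ± 0.13 (adjusted p = 1.47e-05), and the knockouts differed by 0.52 ± 0.13 (adjusted p = 0.0124). The Stat2 call in Stag2-/- siGLO was lost without Stag2-/- siGLO replicate 1 or 2 or wild-type siGLO replicate 3 (-0.72 to -0.59, adjusted p = 0.107 to 0.154), that of Irf3 without Stag2-/- siGLO replicate 1 or wild-type siGLO replicate 2 or 3 (0.30 to 0.44, adjusted p = 0.101 to 0.188) and that of Irf9 without Stag2-/- siStag1 replicate 1 or wild-type siGLO replicate 2 (-0.43 to -0.29, adjusted p = 0.135 to 0.19). Without replicate 1 of both Stag2-/- conditions, Irf3 (0.30, adjusted p = 0.169) and Irf9 (-0.29, adjusted p = 0.176) did not pass, nor did Irf9 in a fit to only the libraries compared (adjusted p = 0.104).

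Both genes of the cGAS and STING pathway were lower in Stag2-/- cells, and the cGAS gene also in Stag1-/- cells. Tmem173 encodes STING, the adaptor downstream of cGAS. It had 64.5, 72.2 and 53.2 normalized counts in wild-type siGLO, 56.1, 63.3 and 57.0 in Stag1-/- siGLO, 24.3, 17.2 and 19.0 in Stag2-/- siGLO and 24.6, 11.4 and 13.1 in Stag2-/- siStag1. The Stag2-/- libraries lay below all others, with log2 fold changes of -1.64 ± 0.28 (adjusted p = 0.00072) and -1.93 ± 0.28 (adjusted p = 7.37e-05), and the knockouts differed by 1.53 ± 0.28 (adjusted p = 0.00128). Mb21d1 (chr9:78430526-78443237 in mm10) encodes cGAS itself, the DNA sensor. It had 91.6, 79.3 and 78.4 in wild-type siGLO, 49.2, 25.3 and 22.6 in Stag1-/- siGLO, 59.3, 46.3 and 42.2 in Stag2-/- siGLO and 42.4, 37.4 and 47.5 in Stag2-/- siStag1. No library of these 3 groups reached the wild-type siGLO range, with log2 fold changes of -1.36 ± 0.30 (adjusted p = 0.00589), -0.75 ± 0.29 (adjusted p = 0.0781) and -0.97 ± 0.29 (adjusted p = 0.0169). The second was lost without any 1 of 5 libraries, the 3 of wild-type siGLO and Stag2-/- siGLO replicates 2 and 3 (-0.79 to -0.65, adjusted p = 0.128 to 0.195). Between the knockouts the difference was -0.61 ± 0.31 (adjusted p = 0.185, and 0.0648 with the replicate block). In wild-type siStag1, Mb21d1 had 99.1, 57.0 and 57.1, which straddled the wild-type siGLO range.

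The RNA-sensing genes were mixed. Mavs, the mitochondrial adaptor of RIG-I and MDA5, had 617, 715 and 738 normalized counts in wild-type siGLO, 584, 506 and 544 in Stag1-/- siGLO, 401, 516 and 604 in Stag2-/- siGLO and 305, 429 and 365 in Stag2-/- siStag1. It fell by 0.44 ± 0.14 in Stag2-/- siGLO (adjusted p = 0.0371) and by 0.91 ± 0.14 in Stag2-/- siStag1 (adjusted p = 0.000143), without overlap. In Stag1-/- siGLO its log2 fold change was -0.34 ± 0.14 (adjusted p = 0.125, and 0.0561 with the replicate block). The Stag2-/- siGLO call was lost without replicate 1 of that group or wild-type siGLO replicate 2 or 3 (-0.42 to -0.30, adjusted p = 0.117 to 0.139). Ifih1 encodes MDA5 and was near the detection limit in wild-type cells, with 1, 1 and 4 raw counts in wild-type siGLO. It had 13, 10 and 4 counts in Stag1-/- siGLO, 2, 17 and 19 in Stag2-/- siGLO and 12, 19 and 15 in Stag2-/- siStag1. Summed over libraries and divided by library size, the ratio to wild-type siGLO was 4.41 in Stag1-/- siGLO (95% exact interval 1.78 to 13.1), 6.93 in Stag2-/- siGLO (2.91 to 20.1) and 7.98 in Stag2-/- siStag1 (3.40 to 22.9), intervals that cover counting error only. The adjusted p was 0.102 (0.0677 with the block), 0.0213 and 0.00682, for a gene that met the filter on low counts only through the other conditions. Ddx58 encodes RIG-I. It ranged from 268 to 925 and passed in no comparison in the fit of all libraries without the block, but did so under other settings. It had 819, 606 and 333 in wild-type siGLO, 925, 697 and 542 in Stag2-/- siGLO and 527, 313 and 268 in Stag2-/- siStag1. Its values moved with the replicate number in each condition. Its log2 fold change in Stag2-/- siStag1 against wild-type siGLO was -0.66 ± 0.31 (adjusted p = 0.107). It passed there under 6 of 14 alternatives, among them without replicate 1 of both Stag2-/- conditions (-1.01, adjusted p = 0.0107), without Stag2-/- siStag1 replicate 1 (-1.01, adjusted p = 0.0212) and without wild-type siGLO replicate 3 (-0.95, adjusted p = 0.0224). Between Stag2-/- siStag1 and Stag2-/- siGLO its log2 fold change was -0.96 ± 0.31 (adjusted p = 0.103, and 0.000175 with the replicate block), and it passed under 6 of 14 alternatives, among them without Stag2-/- siGLO replicate 3 (-1.13, adjusted p = 0.0854) and without Stag2-/- siStag1 replicate 1 (-1.31, adjusted p = 0.0253). The log2 fold change of Ddx58 between the knockouts was -0.48 ± 0.31 (adjusted p = 0.296, and 0.0131 with the block) and in Stag2-/- siGLO against wild-type siGLO 0.30 ± 0.30 (adjusted p = 0.522, and 0.0549 with the block). Dhx58, a related helicase, ranged from 17.7 to 44.5 and passed in no comparison.

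Of the 7 effectors, 4 could be tested, and of these 2 were higher in Stag1-/- siGLO (Oasl2 and Isg15), 2 in Stag2-/- siGLO (Oasl2 and Ifit2) and all 4 in Stag2-/- siStag1 cells (10.1%, 13.9% and 22.6% of all genes). Isg15 and Rsad2 reached the filter's level in 0 wild-type siGLO libraries, and the effectors that stayed low in every condition could not be tested, so these counts are conditioned on a high level somewhere. Oasl2 (chr5:114896936-114912234 in mm10), an interferon-induced protein of the oligoadenylate synthetase family, had 19.6, 9.15 and 25.2 normalized counts in wild-type siGLO, 127, 100.3 and 77.7 in Stag1-/- siGLO, 67.7, 148 and 106 in Stag2-/- siGLO and 167, 318 and 280.1 in Stag2-/- siStag1. None of these 3 groups overlapped wild-type siGLO, at log2 fold changes of 2.48 ± 0.39 (adjusted p = 0.000427), 2.56 ± 0.39 (adjusted p = 0.000287) and 3.81 ± 0.38 (adjusted p = 1.81e-06). In wild-type siStag1 it had 35.0, 18.4 and 21.3, which overlapped wild-type siGLO. Isg15, a ubiquitin-like modifier whose promoter holds 3 overlapping ISRE matches, had 1, 3 and 1 raw counts in wild-type siGLO, 16, 8 and 16 in Stag1-/- siGLO, 2, 10 and 7 in Stag2-/- siGLO and 5, 14 and 5 in Stag2-/- siStag1. Its ratio to wild-type siGLO was 7.84 (3.09 to 25.5), 4.16 (1.50 to 14.2) and 5.00 (1.87 to 16.8), with adjusted p = 0.0171, 0.101 (0.0845 with the replicate block) and 0.0376. Its log2 fold change in Stag2-/- siGLO was 1.97 with all libraries, and it passed without Stag2-/- siGLO replicate 1 (log2 fold change 2.39, adjusted p = 0.0457) and without replicate 1 of both Stag2-/- conditions (log2 fold change 2.40, adjusted p = 0.0369). The call in Stag2-/- siStag1 was lost without Stag2-/- siStag1 replicate 2 or wild-type siGLO replicate 1 or 3 (adjusted p = 0.11 to 0.205). Rsad2 encodes viperin, an enzyme that blocks virus replication. It had 2, 4 and 0 raw counts in wild-type siGLO, 12, 7 and 10 in Stag1-/- siGLO, 9, 17 and 5 in wild-type siStag1, 12, 3 and 5 in Stag2-/- siGLO and 55, 25 and 14 in Stag2-/- siStag1. Its ratio to wild-type siGLO was 16.3 (7.22 to 45.6) in Stag2-/- siStag1 (adjusted p = 0.000717). It was 4.74 (1.93 to 14.0) in Stag1-/- siGLO (adjusted p = 0.101, 0.0676 with DESeq2 and 0.0342 with the block) and 3.65 (1.41 to 11.1) in Stag2-/- siGLO (adjusted p = 0.165, and 0.0861 with the block). In Stag1-/- siGLO, Rsad2 passed under 5 of 11 alternatives. Ifit2, which inhibits translation of viral RNA, had 58.9, 49.8 and 46.5 normalized counts in wild-type siGLO, 43.3, 76.9 and 74.1 in Stag1-/- siGLO, 75.1, 109.9 and 80.2 in Stag2-/- siGLO and 84.8, 98.8 and 121 in Stag2-/- siStag1. It rose by 0.77 ± 0.26 in Stag2-/- siGLO (adjusted p = 0.0465) and 0.97 ± 0.26 in Stag2-/- siStag1 (adjusted p = 0.00776). The first call was lost without Stag2-/- siGLO replicate 2 or wild-type siGLO replicate 2 or 3 (0.58 to 0.74, adjusted p = 0.13 to 0.183).

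Of the 4 abundant membrane factors, Bst2 rose and Ifitm3 fell in Stag2-/- siStag1 cells, and none passed in either knockout in the main fit, though some did under alternatives. Ifitm3, which blocks virus entry from endosomes, had 2264, 2058 and 1986 normalized counts in wild-type siGLO, 2169, 1738 and 2456 in Stag1-/- siGLO, 1872, 1566 and 1611 in Stag2-/- siGLO and 1384, 1312 and 932 in Stag2-/- siStag1. It fell by 0.80 ± 0.14 in Stag2-/- siStag1 (adjusted p = 0.000351), below all wild-type siGLO libraries. In Stag2-/- siGLO its log2 fold change was -0.32 ± 0.14 (adjusted p = 0.112, and 0.0589 with the replicate block). It passed there under 5 of 14 alternatives, among them library size alone as the scale (adjusted p = 0.0967) and without replicate 1 of both Stag2-/- conditions (-0.40, adjusted p = 0.0422). Between the knockouts Ifitm3 was at 0.33 ± 0.14 (adjusted p = 0.106, and 0.0508 with the block) and passed under 6 of 14, among them DESeq2 (adjusted p = 0.0994). Bst2, or tetherin, which tethers budding virus to the cell, had 1487, 1283 and 1442 in wild-type siGLO, 1724, 1369.7 and 2046 in Stag1-/- siGLO, 1607, 1415 and 1483 in Stag2-/- siGLO and 1905, 2069.9 and 1972 in Stag2-/- siStag1. It rose by 0.50 ± 0.12 in Stag2-/- siStag1 (adjusted p = 0.00346), and in Stag1-/- siGLO its log2 fold change was 0.29 ± 0.12 (adjusted p = 0.117, and 0.0433 with the block). Ifitm2 ranged from 2619.6 to 4696 and passed in no comparison in the fit of all libraries without the block. Against wild-type siGLO it was at -0.33 ± 0.15 in Stag2-/- siStag1 (adjusted p = 0.102) and passed under 6 of 14 alternatives (adjusted p = 0.0268 in a fit to only the libraries compared and 0.0982 with DESeq2, for example). Ifitm2 was at -0.25 ± 0.15 in Stag1-/- siGLO (adjusted p = 0.322, and 0.0899 with the block) and -0.24 ± 0.15 between the knockouts (adjusted p = 0.296, and 0.0902 with the block), and 23.5% of its read-length stretches also occurred in Gm45717. Ifitm1, a surface relative of both, had 847, 763 and 890.4 in wild-type siGLO, 1047, 809 and 1517 in Stag1-/- siGLO and 1077, 866 and 1241 in Stag2-/- siGLO and passed in neither knockout with all libraries. Without Stag1-/- siGLO replicate 2 it passed as higher in Stag1-/- siGLO (0.62, adjusted p = 0.0776).

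Knockdown of STAG1 was compared in the presence and absence of STAG2. In Stag2-/- cells, siStag1 against siGLO gave 8 members that passed (4 higher and 4 lower), against 6.37% of all genes (2.98% higher and 3.39% lower), and with the replicate block 13 (14.1% of all genes). Those higher were Oasl2 (1.25 ± 0.32, adjusted p = 0.0402), Tap1 (0.77 ± 0.21, adjusted p = 0.0555), Rsad2 (2.13 ± 0.62, adjusted p = 0.0672) and Bst2 (0.40 ± 0.12, adjusted p = 0.0684). Rsad2 reached the level of the low-count filter in 3 Stag2-/- siStag1 libraries, against 1 of Stag2-/- siGLO, 2 of wild-type siStag1 and 0 of wild-type siGLO. It could enter the test only where it was high, so nothing is read from its place among the 8. Those lower were Nfkbia (-0.58 ± 0.14, adjusted p = 0.0228), Ifitm3 (-0.48 ± 0.14, adjusted p = 0.0689), Ifitm1 (-0.73 ± 0.22, adjusted p = 0.076) and Mavs (-0.47 ± 0.15, adjusted p = 0.0861). Ifitm1 had 464, 867 and 594 normalized counts in Stag2-/- siStag1, where replicate 2 overlapped Stag2-/- siGLO, and Mavs also overlapped. With the block, Tap2 (0.81 ± 0.37 and adjusted p = 0.276 without it, 0.0776 with it), Ifngr1 (0.50 ± 0.18, 0.155 and 0.043), Irf1 (0.40 ± 0.14, 0.155 and 0.0499) and Ifitm2 (-0.33 ± 0.15, 0.293 and 0.0846) also passed, as did Ddx58. In wild-type cells the same siRNA gave 0 members that passed by edgeR, 0 with the replicate block (1.63% of all genes) and 0 by DESeq2 (0.933%). A fit to only the libraries compared gave 2 (0.909%). The 6 members with an unadjusted p under 0.05 there were Rsad2 (2.34 ± 0.84, adjusted p = 0.527), Ifitm3 (-0.38 ± 0.14, adjusted p = 0.552), Psmb9 (0.63 ± 0.23, adjusted p = 0.555), H2-D1 (0.90 ± 0.36, adjusted p = 0.639), Bst2 (0.30 ± 0.12, adjusted p = 0.639) and Ifitm1 (-0.50 ± 0.22, adjusted p = 0.722). Psmb9 had 51.3, 57.0 and 59.0 in wild-type siStag1, and H2-D1 33.8, 36.8 and 39.7, both above the wild-type siGLO libraries. Ifitm3 had 1561, 1699.7 and 1586 and Ifitm1 544, 596 and 623, both below them. The ratio of Rsad2 counts to wild-type siGLO was 5.35 (2.20 to 15.7). The difference between the effects of siStag1 in Stag2-/- and wild-type cells was passed by 0 members by edgeR, against 0.159% of all genes, by 0 with DESeq2 (0.715%) and by 1, Ddx58, with the replicate block (0.951%). Nfkbia was the 1 member of 33 with an unadjusted p under 0.05 (-0.55 ± 0.19, adjusted p = 0.569), against 5.80% of all genes.

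Of the 8 calls in Stag2-/- cells, that of Nfkbia was kept when any 1 library was left out, and was lost in a fit to only the libraries compared (-0.59, adjusted p = 0.118). That fit left 1 of the 8 calls, Bst2 (1.61% of all genes). Oasl2 was lost without Stag2-/- siGLO replicate 1 or Stag2-/- siStag1 replicate 2 or 3 (1.01 to 1.18, adjusted p = 0.119 to 0.163), and Tap1 without Stag2-/- siGLO replicate 1 or 3 or Stag2-/- siStag1 replicate 2 or 3 (0.66 to 0.74, adjusted p = 0.161 to 0.179). Rsad2 was lost without Stag2-/- siGLO replicate 2 or 3 or Stag2-/- siStag1 replicate 1 or 2 (1.48 to 2.25, adjusted p = 0.12 to 0.21), and Bst2 without replicate 2 or 3 of either group (0.36 to 0.40, adjusted p = 0.152 to 0.209). Ifitm3 was lost without Stag2-/- siGLO replicate 1 or 3 or Stag2-/- siStag1 replicate 2 or 3 (-0.54 to -0.32, adjusted p = 0.106 to 0.297), and Ifitm1 without replicate 1 or 3 of either group (-0.72 to -0.54, adjusted p = 0.139 to 0.254). Mavs was lost without Stag2-/- siGLO replicate 2 or 3 or Stag2-/- siStag1 replicate 1 or 3 (-0.47 to -0.33, adjusted p = 0.174 to 0.277). Without replicate 1 of both groups, Ifitm1 (-0.53, adjusted p = 0.246) and Rsad2 (2.20, adjusted p = 0.101) did not pass. With library size alone as the scale, Ifitm1 (adjusted p = 0.113) and Mavs (adjusted p = 0.144) did not pass. The count of members fell to 4 without Stag2-/- siGLO replicate 1, 3 without Stag2-/- siGLO replicate 3 or Stag2-/- siStag1 replicate 2, and 2 without Stag2-/- siStag1 replicate 3.

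**Figure D5:**
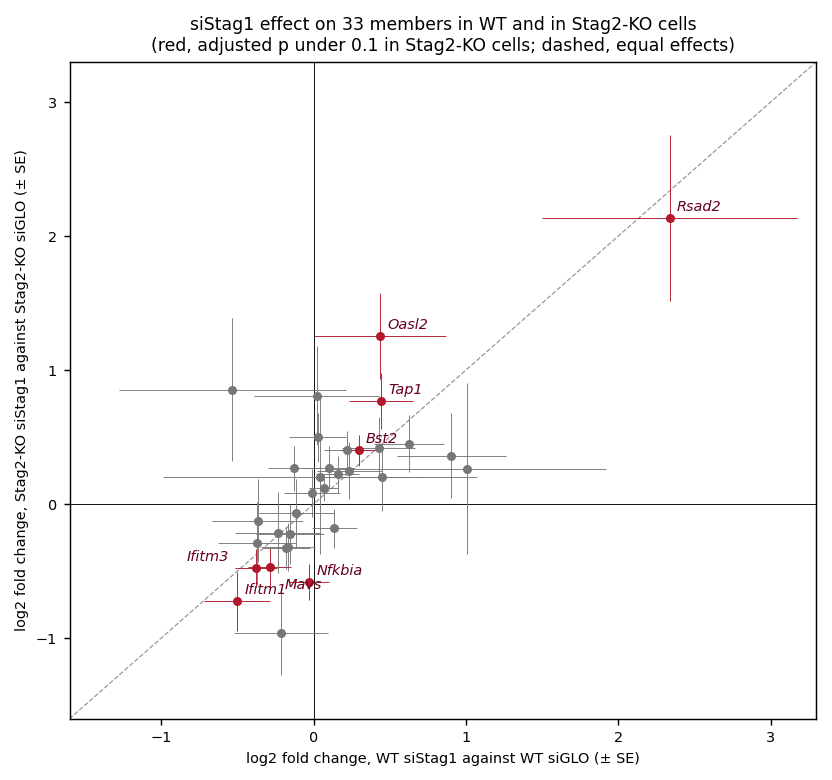
Log2 fold change of siStag1 against siGLO in wild-type cells (x axis) and in Stag2-/- cells (y axis) for the 33 tested members, with standard errors as lines and equal effects as a dashed line. The 8 red points passed the test in Stag2-/- cells. Rsad2, which reached the level of the low-count filter in 0 wild-type siGLO libraries, lies at 2.34 and 2.13.

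Between the knockouts, 6 members passed the test (3 higher and 3 lower in Stag1-/- siGLO), against 25.7% of all genes (12.7% higher and 12.9% lower). Tap1, Nfkbia and Tmem173 were higher in Stag1-/- siGLO, and Ifnar1, Ifngr1 and Ifngr2 were higher in Stag2-/- siGLO, at the values already given. With the replicate block 12 members passed (37.3% of all genes), the additional ones being Ifnar2, Stat2, Ddx58, Mb21d1, Ifitm2 and Ifitm3. Without replicate 1 of both Stag2-/- conditions 10 passed (27.1%).

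Genes with a motif match were read against all genes with the same match. In Stag2-/- siStag1 against wild-type siGLO, 3 of the 6 tested members with an ISRE match were higher (Bst2, Isg15 and Rsad2) and 1, Stat2, was lower, while B2m and Ifitm2 did not pass. Isg15 and Rsad2 met the filter on low counts only through libraries other than wild-type siGLO, and H2-T23, Ifit1 and Ifit3, which also have a match, were too low to test, so nothing is read from the 3 of 6. Of 334 tested genes with an ISRE match, 27.8% were higher, against 22.3% of the 11439 tested genes with a promoter entry. Of the 5 members with a GAS match, Psmb8, Irf1, Bst2 and Ifit2 were higher and Ifnar2 did not pass. Of 798 tested genes with a GAS match, 23.6% were higher. In Stag1-/- siGLO, 11.1% of genes with an ISRE match and 9.77% of genes with a GAS match were higher, against 9.89% of all. In Stag2-/- siGLO these shares were 15.9%, 13.8% and 13.7%.

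Other genes of the same pathways were taken from 4 lists of antigen presentation, interferon signalling, sensing and NF-kB, and interferon-stimulated genes, of which 121 were tested. In Stag1-/- siGLO 24 of them were higher and 12 lower, in Stag2-/- siGLO 26 and 20, in Stag2-/- siStag1 39 and 31 (shares of 19.8% and 9.92%, 21.5% and 16.5%, and 32.2% and 25.6%, against 10.1% and 9.93%, 13.9% and 14.4%, and 22.6% and 21.3% of all genes), and in wild-type siStag1 0 and 1. That 1 gene, named here after its value was seen, was the class II chain H2-Eb1 (-1.51 ± 0.32, adjusted p = 0.0893). Of 43 interferon-stimulated genes tested, 14 were higher and 5 lower in Stag1-/- siGLO, 15 and 8 in Stag2-/- siGLO, and 20 and 12 in Stag2-/- siStag1. Irgm1, an immunity-related GTPase, had 183, 121 and 118 normalized counts in Stag1-/- siGLO against 31.8, 17.3 and 17.4 in wild-type siGLO, a log2 fold change of 2.65 ± 0.29 (adjusted p = 1.79e-05), and reached 2.40 ± 0.29 in Stag2-/- siGLO and 3.71 ± 0.29 in Stag2-/- siStag1. Gbp2, a guanylate-binding protein induced by interferon gamma, was higher by 1.76 ± 0.26 and 1.49 ± 0.26 in the knockouts. Erap1, the peptidase that trims peptides for class I, was higher by 1.17 ± 0.31 and 1.85 ± 0.31. Gbp7 (3.74 ± 0.44) and the nucleic acid sensor Zbp1 (3.14 ± 0.37) led with Irgm1 in Stag2-/- siStag1. Falls included Xaf1, at -1.16 ± 0.31, -1.19 ± 0.32 and -2.15 ± 0.34 in the 3 conditions, and Irf8, an interferon regulatory factor, at -1.59 ± 0.35 in Stag2-/- siGLO and -1.83 ± 0.36 in Stag2-/- siStag1. Oas1a (-1.37 ± 0.34) and Helz2 (-1.22 ± 0.23) fell in Stag1-/- siGLO. In antigen presentation, 32 genes were tested, with 4 higher and 4 lower in Stag1-/- siGLO, 5 and 4 in Stag2-/- siGLO, and 10 and 6 in Stag2-/- siStag1, or 12.5% and 12.5%, 15.6% and 12.5%, and 31.2% and 18.8%. Of 19 tested signalling genes, 1 was higher and 1 lower in Stag1-/- siGLO, 2 and 5 in Stag2-/- siGLO and 3 and 5 in Stag2-/- siStag1. Of 27 genes of sensing and NF-kB, 5 and 2, 4 and 3, and 6 and 8 passed. Ulbp1, a ligand of the NKG2D receptor, fell by 1.05 ± 0.21 in Stag2-/- siGLO, and Fcgrt, a class I-like Fc receptor, by 1.10 ± 0.22 in Stag2-/- siStag1. Between siStag1 and siGLO in Stag2-/- cells, the NF-kB genes Relb (-0.58 ± 0.11) and Nfkb1 (-0.54 ± 0.08) fell and Zbp1 (1.44 ± 0.33) and Irgm1 (1.30 ± 0.25) rose. The interferon genes themselves had at most 3 counts in any library, and Ifnb1 was listed at 0 in all 15.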

How the data were processed

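PolyA RNA from 15 samples of mESCs, 3 for each of 5 conditions, was sequenced as paired 150-base reads. STAR was used by the authors for alignment to mm10, and the deposited files hold the count of reads on each gene, not normalized, with 4 summary lines of unassigned reads. The counting tool, annotation and use of strand were not given in the sources used here. The summary lines held 9.78 to 13.0% of reads as outside features, 1.92 to 2.08% as ambiguous, 3.80 to 4.50% as multimapping and 4.01 to 4.79% as unmapped, and were left out of library sizes. A floor of 3 counts corresponded to 0.157 to 0.200 CPM. No 2 libraries were duplicates.

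Counts were filtered with filterByExpr (minimum count 10, minimum total 15), scaled by TMM and fitted over all 15 libraries with the quasi-likelihood test of edgeR 4.0.16 in R 4.3.3, with 10 residual degrees of freedom. Of 23412 genes listed, 19494 had at least 1 count, 14508 were tested, and 33 of the 38 members were among them. P-values were adjusted over all tested genes by the Benjamini-Hochberg method, and 0.1 was the threshold, as in the study. To give normalized counts, each count was put over its library total times the TMM factor, and brought back to the mean of these products over the 15 libraries. Standard errors are those of the log2 fold change. The 7 comparisons set the other 4 conditions against wild-type siGLO, set the knockouts against each other and siStag1 against siGLO in Stag2-/- cells, and took the difference between the siStag1 effects. For members with few counts, ratios of summed counts were given with 95% exact intervals. An exact permutation test of 3 against 3 libraries could not go below 0.1 and was not used. The fit was tested on simulated data.

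The labels number the replicates 1 to 3. Over 11529 genes, deviations from condition means correlated at a mean of 0.31 in the 30 pairs of libraries of the same number and -0.15 in the 60 other pairs. Deviations within a condition cancel out, so the second mean follows from the first and adds no evidence. Every same-number pair exceeded 0.1 in 5 comparisons (lowest 0.260 for Stag1-/- siGLO, 0.131 for Stag2-/- siGLO and 0.271 for wild-type siStag1 against wild-type siGLO, 0.267 between the knockouts and 0.304 for siStag1 in Stag2-/- cells). In Stag2-/- siStag1 against wild-type siGLO (lowest 0.047) and the difference between siStag1 effects (lowest -0.093), some pairs did not. The main fit, with its counts and standard errors, took no account of this pairing. Results with the replicate block were given beside it as an alternative.

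Every member was accounted for, and values by library were given for those that passed in a comparison, mainly in the conditions compared. Of the other lists, at most 3 rises and 3 falls per comparison were named, the largest among called genes without overlap and with a mean of at least 50 normalized counts. The members and lists were chosen with earlier results of these data known. Alternatives were DESeq2 1.42.0, other size factors, other filters, only the libraries compared, the replicate block, a threshold of 0.05 and leaving out libraries. Leaving out replicate 1 of both Stag2-/- conditions was chosen after seeing the data. Positions are from GENCODE for mm10, and promoters from RefSeq for GRCm38.p6. Python 3.11.15 was used for tables and matplotlib 3.10.9 for plots.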

Additional observations from a re-analysis of the deposited data

How the results depend on the processing

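Of 67 member values that passed, 40 kept their call and direction under every alternative fit that gave them a value, 27 lost the call under at least 1, and 0 changed sign. A fit whose filter removed a gene gave no value for it and was not counted as a loss. The filter of at least 10 counts in every library removed H2-D1, Psmb8, Oasl2, Ifih1, Isg15 and Rsad2 in this way. The replicate block and DESeq2 ended 0 of the 67 calls. Of 42 member values given that had not passed, 1 changed sign, Tap1 in Stag2-/- siGLO against wild-type siGLO, at -0.13 with all libraries and -0.35 to 0.046 on leaving out 1, the last without wild-type siGLO replicate 3. The cause was not tested for the changes that follow, except that the stricter filter leaves fewer members to test. In Stag1-/- siGLO against wild-type siGLO, 11 members became 7 with at least 10 counts in every library, which 27 members met and H2-D1, Psmb8, Oasl2 and Isg15 did not, and 20 with the replicate block, and leaving out 1 library gave 8 to 13. In Stag2-/- siGLO, 17 members became 11 to 18 on leaving out 1 library. In wild-type siStag1, 0 members became 2 in a fit to only the libraries compared. In Stag2-/- siStag1 against wild-type siGLO, leaving out 1 library gave 22 to 27. Between the knockouts, 6 became 12 with the replicate block and 10 without replicate 1 of both Stag2-/- conditions, and 4 to 8 on leaving out 1 library. For siStag1 in Stag2-/- cells, 8 became 1 in a fit to only the libraries compared, 13 with the replicate block, 2 at an adjusted p under 0.05, and 2 to 8 on leaving out 1 library. For the difference between siStag1 effects, 0 became 1 with the replicate block. In Stag2-/- siStag1 against wild-type siGLO, the block gave 31 members in place of 25 (53.7% of all genes). The additional ones were H2-K1, Ifnar2 and Irf3 as higher and B2m, Ddx58 and Ifitm2 as lower (adjusted p = 0.000904 to 0.0996). With the block, the difference between siStag1 effects for Ddx58 had an adjusted p of 0.0638.

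Over all genes, 2907 passed in Stag1-/- siGLO, 4443 with the block and 1915 without wild-type siGLO replicate 2. In Stag2-/- siGLO 4110 passed and 2524 without wild-type siGLO replicate 2. In wild-type siStag1 36 passed, 133 with DESeq2, 126 with only the libraries compared, 236 with the block, 22 at 0.05 and 1 to 15 on leaving out 1 library. Between the knockouts 3722 passed and 2406 with only the libraries compared. For siStag1 in Stag2-/- cells 924 passed, 224 with only the libraries compared, 2049 with the block, 548 at 0.05 and 416 to 1484 on leaving out 1 library. For the difference between siStag1 effects 23 passed, 102 with DESeq2, 14 with only the libraries compared, 138 with the block, 80 without replicate 1 of both Stag2-/- conditions and 13 to 76 on leaving out 1 library. Depth limited Ifih1, Isg15 and Rsad2, with 6, 5 and 6 counts summed over the wild-type siGLO libraries.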

Other observations

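Some members followed the replicate number across conditions. Ddx58 was highest in the library numbered 1 and lowest in that numbered 3 in 5 of 5 conditions, and Stat2 was lowest in the library numbered 1 and highest in that numbered 3 in 5 of 5. B2m and Ifnar2 were highest in the library numbered 3 in 5 of 5 conditions, and Tap1 and Psmb9 lowest in the library numbered 1 in 5 of 5.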
